A study of Bombus terrestris with 16 samples.

Results

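The gene described here is a trehalase of the bumblebee gut, held in 1 RefSeq transcript record (XM_003400805.1, locus LOC100646078) of the 10635 in the deposited expression table. It was picked by its identifier because its levels in exposed and control guts were already known to differ. That contrast is therefore given as a description with no test, and tests were kept to differences among parasite genotypes, among colonies, and in the size of the exposed-control difference between colonies.

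Trehalose, a disaccharide of glucose, is the main blood sugar of insects. It is made by trehalose 6-phosphate synthase, moves across membranes through dedicated carriers, and is split back into glucose by trehalase. Insects have soluble and membrane-bound trehalases, and the gut is one of the tissues in which the enzyme is found.

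Poly(A) RNA was sequenced from the guts of Bombus terrestris workers that had been exposed to genotype 068, 075 or 161 of Crithidia bombi, a trypanosome living in the bumblebee gut, or had been left as controls. Colonies K, L, S and T, 4 in all, each gave 1 library per exposure, which makes 12 exposed and 4 control libraries, 4 per genotype and 4 per colony. Guts of 3 workers aged 7 d, sampled 18 h after exposure, were pooled for each library, so spread between single workers was not measured. The labels give no parasite load for any library.

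Library totals ran from 8.47 to 9.29 M reads (mean 8.85 ± 0.223 M, SD, n = 16). Of the marker lists, 48 of 48 midgut records, mostly digestive enzymes, had reads, with summed levels of 62109 to 87621 RPKM (read count scaled to record length and library total) in exposed and 58831 to 81730 RPKM in control libraries. Muscle markers summed to 477 to 677 RPKM in exposed and 507 to 682 RPKM in control libraries, and Malpighian tubule markers to 2019 to 3326 RPKM in exposed and 2399 to 2869 RPKM in control libraries. The Malpighian tubule list was searched as V-type proton ATPase subunits, urate transporter and inward rectifier potassium channel, so its sum need not mark tubule tissue alone. Nervous system markers summed to 100.6 to 127 RPKM in exposed and 108 to 126 RPKM in control libraries, so on every list the ranges overlapped. Of the tested markers, 14 of 19 for Malpighian tubule, 16 of 41 for midgut, 6 of 20 for muscle and 6 of 12 for nervous system had a higher level in exposed guts by edgeR's fit, against 44.1% of all genes, and 0 were called. The part of these markers in the trehalase difference was not tested. No record matched the fat body, hemocyte or germ line lists. L 161 and K control stood apart from the other libraries. They lay at opposite ends of the first principal component, which held 34.1% of the variance and had S 075 next to K control, and they had the lowest (0.811, L 161) and the highest (1.20, K control) scaling factor. These bulk libraries cannot tell fewer cells of a type from less RNA per cell.

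The trehalase record is 3251 bases long, and its deposited description as alpha,alpha-trehalase rests on a database hit with a score of 963. Reads covered 99.57% to 99.94% of its length in 15 libraries and 94.43% in L 161. In L 161 the median coverage of the 492 records with at least 100 RPKM was also the lowest, at 85.0%, against 89.4% to 92.0% in the other 15. Trehalase took at most 0.723% of a library's reads, in K 075 (95% Wilson interval 0.718% to 0.729%), and at least 0.311%, in L control (0.307% to 0.314%). These intervals cover counting error only, with each counted read taken as independent, and they are narrow beside the spread between libraries.

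Trehalase was among the most abundant messages of these guts. Its mean level was 1575 ± 351 RPKM over the 16 libraries (SD), rank 35 of 10635 records by mean RPKM, and its rank within a library lay between 29 and 52. The record ranked just above it, XM_003394962.1, carries no description and averaged 1583 ± 890 RPKM. The record just below was elongation factor 1-alpha (XM_003401944.1), which brings aminoacyl-tRNA to the ribosome, at 1566 ± 129 RPKM. The means of these 3 records differed by less than their SDs. The coefficient of variation over libraries was 22.3% for trehalase and 8.23% for the elongation factor.

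By RPKM, trehalase stood in genotype 068 libraries at 1904 in colony K, 1601 in L, 1973 in S and 1646 in T. In genotype 075 libraries it stood at 2225 in K, 1605 in L, 1834 in S and 1134 in T. In genotype 161 libraries it stood at 1457 in K, 1650 in L, 1840 in S and 1702 in T, and in controls at 1385 in K, 955 in L, 1119 in S and 1179 in T. The exposed and control ranges overlapped through a single exposed library, T 075, which lay below 2 of the 4 controls. The other 11 of 12 exposed libraries lay above the highest control, and the lowest of those 11 was K 161.

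**Figure D1:**
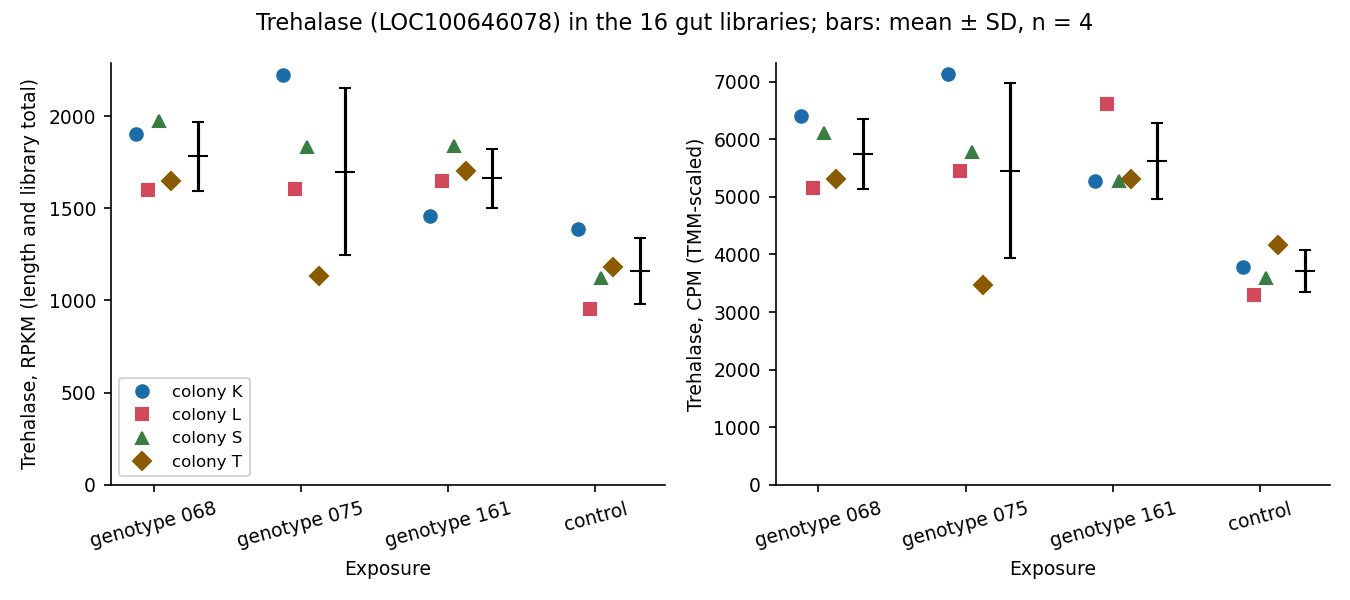
Trehalase level in each library by exposure, in RPKM (left) and in CPM scaled by TMM (right), with symbols for the colony and bars for the mean ± SD of 4 libraries. T 075, at 1134 RPKM, is the exposed library that lies among the controls, which sit between 955 and 1385 RPKM.

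The same order of exposed over control held on CPM, read counts scaled to library totals corrected by TMM for differences in library composition. By CPM, trehalase stood in genotype 068 libraries at 6404 in K, 5150 in L, 6118 in S and 5318 in T, and in genotype 075 libraries at 7136 in K, 5444 in L, 5788 in S and 3468 in T. It stood in genotype 161 libraries at 5277 in K, 6613 in L, 5275 in S and 5320 in T, against 3776 in K, 3297 in L, 3593 in S and 4163 in T among controls. Again T 075 was the only exposed library not above the highest control, here T control. The scaling moved L 161 most: it was the highest genotype 161 library by CPM and an ordinary one by RPKM.

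Group means were 5609 ± 928 CPM in exposed (SD, n = 12) and 3707 ± 362 CPM in control libraries (SD, n = 4). By genotype they were 5747 ± 608 CPM after 068, 5459 ± 1515 CPM after 075 and 5621 ± 662 CPM after 161 (SD, n = 4 each). By RPKM they were 1781 ± 185 after 068, 1699 ± 456 after 075, 1662 ± 158 after 161 and 1160 ± 178 in controls. The order of the genotypes thus depended on the scale, and the 3 genotype means differed by less than their SDs, while each lay above the control mean on both scales. The coefficient of variation was 27.8% by CPM after 075, against 10.6% after 068, 11.8% after 161 and 9.78% in controls, and the 075 group held both the highest and the lowest exposed library.

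In edgeR's fit with colony and exposure as factors, the log2 difference of exposed minus control was 0.58 ± 0.15 (SE), which is 1.499-fold. It was 0.62 ± 0.18 for 068, 0.53 ± 0.18 for 075 and 0.60 ± 0.18 for 161, and these 3 values share the same 4 controls. Without K control, S 075 and L 161 they were 0.47 for exposed, 0.56 for 068, 0.43 for 075 and 0.42 for 161. Over the whole table, edgeR called 0 of 8406 genes for exposed minus control at an adjusted p of 0.05 (0%), with 263 genes under 0.05 before adjustment. Neither DESeq2 nor limma called any (0 each), with 293 and 269 genes under 0.05 before adjustment. Of the 8406 genes, 140 (1.67%) had a log2 difference above that of trehalase. Among the 108 genes with a mean of at least 1000 CPM, 2 had a difference at least as large as that of trehalase, trehalase included. The other, at 0.73, was the highest member of the sugar-splitting digestive enzymes described below. Since the contrast chose the gene, these positions are descriptions.

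Set against the control of its own colony, trehalase was higher in 11 of 12 exposed libraries. By CPM the log2 differences in colony K were 0.76 after 068, 0.92 after 075 and 0.48 after 161, and in colony L 0.64, 0.72 and 1.004 in the same order. In colony S they were 0.77, 0.69 and 0.55, and in colony T 0.35, -0.26 and 0.35. All 3 values of colony T lay below all 9 of the other colonies on this scale. By RPKM this separation was absent: K 161 was 0.07 above K control, whereas T 068 and T 161 were 0.48 and 0.53 above T control. K control has the highest scaling factor of the 16 libraries, and K 161 one of the lower ones (0.898).

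**Figure D2:**
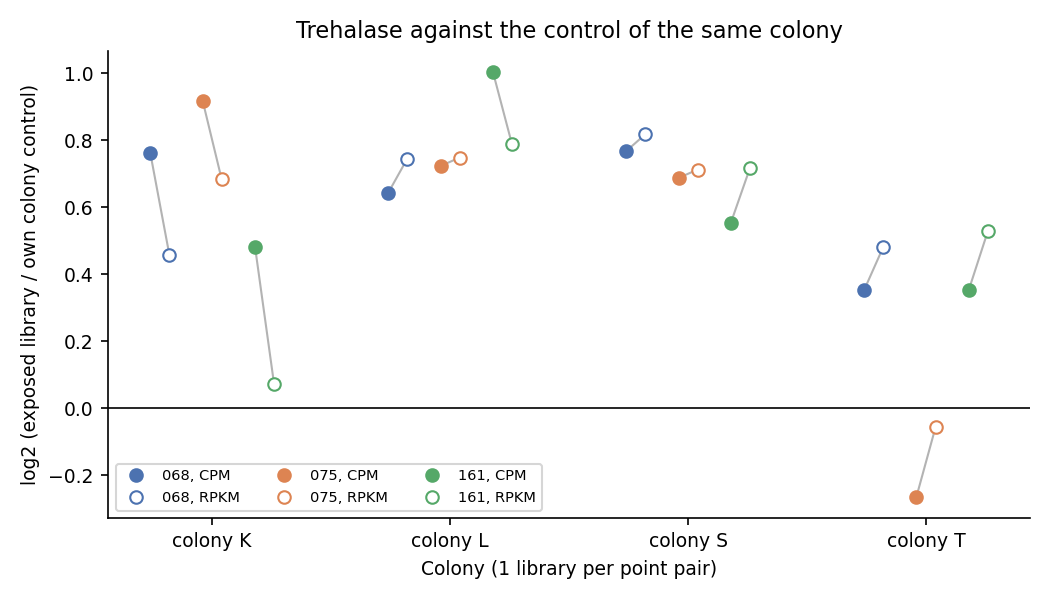
Log2 difference of trehalase between each exposed library and the control of its colony, by CPM scaled by TMM (filled) and by RPKM (open), with lines joining the values of 1 library. On both scales T 075 is the only point below 0, and the 2 scales differ most in colony K.

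The first test was whether the 3 parasite genotypes left trehalase at different levels. They were not distinguished by edgeR's F-test (unadjusted p = 0.875, adjusted p = 1). Nor were they by an exact permutation of genotype labels within colonies, on the sum of squares among genotypes. Its p was 0.861 over 1296 relabellings, of which the smallest possible p is 0.00463. The log2 difference of 068 minus 075 was 0.09 (95% interval -0.30 to 0.48, edgeR adjusted p = 1). That of 161 minus 075 was 0.07 (-0.32 to 0.46, edgeR adjusted p = 0.948), and that of 161 minus 068 was -0.02 (-0.41 to 0.36, edgeR adjusted p = 0.999). By CPM, the first genotype of each of the 3 pairs was higher in 2 of 4 colonies. By RPKM, 161 lay above 075 in L, S and T, in S at 1840 against 1834. With 4 libraries each, these intervals do not exclude differences between genotypes of up to their ends. The genotype F-test called 0 of 8406 genes (0%) by edgeR, with 134 under 0.05 before adjustment. DESeq2 and limma also called 0, with 166 and 140.

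The order of genotypes within a colony changed from colony to colony. By RPKM, 075 was highest in K, 161 in L and T, and 068 in S, and 075 was lowest in S and T. Of the sum of squares of log2 CPM over the 16 libraries, 55.6% lay between exposed and control, 1.54% among genotypes, 9.33% among colonies and 33.5% in the combination of colony with exposure. With 1 library per combination, the last share cannot be told apart from the spread between pools. The first share is the contrast that chose the gene, so it is a description and cannot be weighed against the others.

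Colony means followed the order K, S, L and T on both scales, with overlapping ranges. They were 5648 ± 1464 CPM in K, 5193 ± 1122 in S, 5126 ± 1374 in L and 4567 ± 913 in T (SD, n = 4 each, 3 exposed and 1 control). The colonies were not distinguished by edgeR (unadjusted p = 0.532, adjusted p = 0.788) or by an exact permutation of colony labels within exposures (p = 0.546 over 13824 relabellings). The pair farthest apart was T minus K, at -0.27 (95% interval -0.66 to 0.12, edgeR adjusted p = 0.781). The colony test called 39 of the 8406 genes (0.464%), and trehalase was not among them. The count was 24 without T 068 and 128 without K control.

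When each colony was fitted with its own exposed-control difference, that difference was 0.73 ± 0.27 in K, 0.80 ± 0.27 in L, 0.67 ± 0.27 in S and 0.18 ± 0.26 in T (log2 ± SE). The 4 values did not differ beyond their errors (edgeR F-test of colony by exposed state, unadjusted p = 0.337, adjusted p = 0.832). Each colony has 1 control library, so each of the 4 differences rests on 1 control. By CPM the log2 differences from T control were 0.35 in T 068, 0.35 in T 161 and -0.26 in T 075. The test of colony by exposed state called 142 of 8406 genes (1.69%), and this count moved with single libraries. It was 0 without K control, 3 without S control or without K 068, 5 without K 161, 58 without T 068, 70 without L 075, 215 without L control and 250 without L 161.

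The table holds 1 other record described as trehalase (XM_003393639.1, LOC100648008, 6311 bases), whose deposited annotation places the protein in the membrane, whereas the record of LOC100646078 has no location annotated. By RPKM it stood in exposed libraries between 39.4 and 54.5, with a median of 43.0, and in controls at 53.3 in K, 49.3 in L, 46.1 in S and 46.3 in T. The ranges overlapped, and 2 of 12 exposed libraries, K 068 and T 161, lay above their own control. Reads covered 85.76% of its length in L 161 and 90.98% to 97.01% in the other 15 libraries. Its log2 difference was -0.12 ± 0.11, with a 95% interval of -0.35 to 0.12 (edgeR adjusted p = 1).

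Trehalose 6-phosphate synthase (XM_003396060.1), which makes the sugar that trehalase splits, was the single record of its kind. It stood between 137 and 250 RPKM in exposed libraries, with a median of 178, and at 205 in K, 197 in L, 172 in S and 179 in T among controls. The controls lay inside the exposed range, and coverage was 95.52% to 98.33% over the 16 libraries. Its log2 difference was -0.03 ± 0.15, with a 95% interval of -0.35 to 0.30 (edgeR adjusted p = 1). It was higher than its own control in 3 of 4 libraries after 068 and in 1 of 4 after each of 075 and 161 by RPKM, and edgeR did not distinguish the genotypes (unadjusted p = 0.296, adjusted p = 1).

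Taken per length within a library, trehalase exceeded both genes throughout. Its RPKM was 38.6 ± 4.93 times that of the other trehalase record in exposed libraries (28.7 in T 075 to 46.5 in S 075) and 23.8 ± 3.02 times in controls (19.4 in L to 26.0 in K). It was 9.56 ± 1.92 times that of the synthase in exposed libraries (7.16 in T 075 to 13.4 in S 161) and 6.17 ± 0.894 times in controls (4.84 in L to 6.77 in K). On both ratios 12 of 12 exposed libraries, T 075 included, lay above the highest control. In T 075 trehalase itself was below T control, at 1134 against 1179 RPKM. The genes it was divided by were lower there too: 39.6 against 46.3 RPKM for the other trehalase record and 158 against 179 RPKM for the synthase. The ratios do not depend on how a library is scaled, but they contain the contrast that chose the gene and are given without a test.

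**Figure D3:**
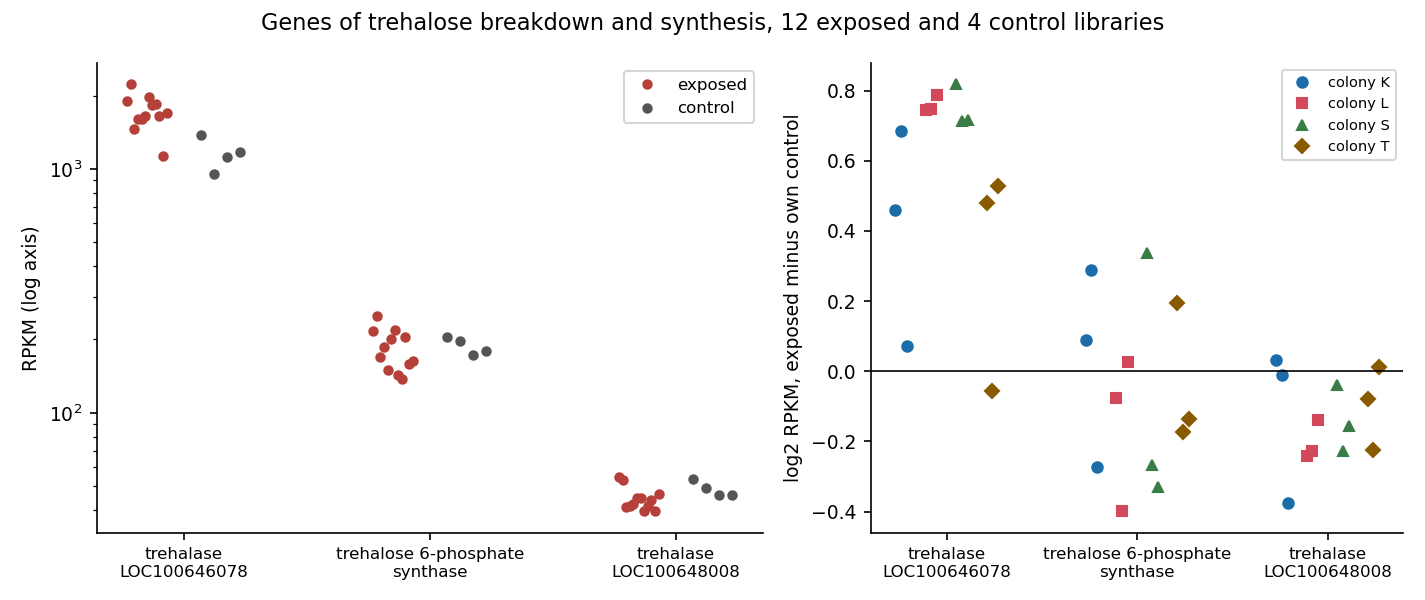
Levels of the 3 trehalose genes in RPKM on a log axis, in 12 exposed and 4 control libraries (left), and the log2 RPKM difference of each exposed library from its own colony's control (right). Trehalase LOC100646078 lies above the other 2 genes in every library, and its differences are positive in 11 of 12 libraries, while those of the synthase and of the other trehalase record lie on both sides of 0.

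Around these genes, 126 records were listed in 10 groups of carbohydrate metabolism, and 108 had enough reads to be tested. For exposed minus control, 53 were higher and 55 lower, with 0 called by edgeR, as over all genes (0%). Before adjustment, 9 of the 108 were under 0.05 by edgeR, against 263 of all 8406 genes tested. DESeq2 and limma also called 0 of the 108. Before adjustment they had 11 and 9 of the 108 under 0.05, against 293 and 269 of the 8406. The share under 0.05 was thus larger in the lists with each tool, and this difference was not tested. Over all genes tested, 3708 were higher and 4698 lower (44.1% higher), with a median log2 difference of -0.02.

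Sugar-splitting digestive enzymes had 9 members higher and 4 lower of 13 tested, with a median log2 difference of 0.12. The alpha-glucosidases, which split sucrose and maltose, led this list in level. The most abundant (XM_003402177.1) averaged 31517 ± 5175 RPKM in exposed and 26498 ± 5606 RPKM in control libraries, a log2 difference of 0.28 ± 0.17. The next (XM_003395866.1) averaged 9577 ± 1093 RPKM in exposed and 8294 ± 573 RPKM in control libraries, at 0.22 ± 0.11. The lowest and highest members of the list were at -0.71 and 0.73, and the highest thus lay above trehalase (0.58).

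Sugar carriers, which pass trehalose or glucose through membranes, had 15 members higher and 20 lower of 35 tested (median -0.02). The most abundant, described as a facilitated trehalose transporter (XM_003396781.1), averaged 2919 ± 300 RPKM in exposed and 2834 ± 284 RPKM in control libraries, with a log2 difference of 0.06 ± 0.11. A record with the same description (XM_003392853.1) averaged 1466 ± 141 RPKM in exposed and 1369 ± 207 RPKM in control libraries, at 0.11 ± 0.15. Of the 35 carriers tested, 1 passed the colony test, against 0.464% of all genes tested. This carrier, XM_003402640.1 (LOC100646248), averaged 188 ± 40.6 RPKM in colony K, 278 ± 25.6 in L, 302 ± 27.5 in S and 271 ± 30.9 in T (SD, n = 4 each, edgeR adjusted p = 0.0462). It kept this call in 5 of 28 alternative settings, whose adjusted p ran from 4.56e-06 with DESeq2 to 0.731 in edgeR without colony K. Its exposed-control difference was -0.27 ± 0.10, and by RPKM the control was the highest library of its colony in K, S and T.

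A further 3 of the 35 carriers tested, all low and named here after their values were seen, passed the test of colony by exposed state (XM_003400472.1, XM_003400510.1 and XM_003402471.1), against 1.69% of all genes tested. XM_003400472.1 had between 0 and 113 CPM in exposed libraries, with a median of 0.521 and the highest value in S 075, and in controls 255.6 CPM in K, 0.348 in L, 0.106 in S and 0 in T. Nearly all its reads in controls were thus in K control. All 3 were called in 14 of 27 alternative settings and none in 8, and DESeq2 called 1. Leaving out K control, S control, K 068, K 075, L 075 or K 161 alone each left none of the 3 called, and without its control a colony has no difference to enter the test.

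Glycolysis had 12 members higher and 11 lower of 23 tested (median 0.04). Aldolase (XM_003402721.1), which splits fructose bisphosphate, averaged 808 ± 84.2 RPKM in exposed and 816 ± 48.7 RPKM in control libraries, a log2 difference of 0.00 ± 0.14. Enolase (XM_003400256.1), the enzyme before pyruvate kinase, averaged 361 ± 42.5 RPKM in exposed and 340 ± 62.6 RPKM in control libraries. Its log2 difference was 0.12 ± 0.09, positive in 4 of 4 colonies by CPM.

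The storage and branch pathways had medians close to that of all genes. Glycogen genes had 5 higher and 5 lower of 10 (median -0.01), with the uridylyltransferase that makes UDP-glucose (XM_003401746.1) at 0.02 ± 0.13 and glycogen phosphorylase (XR_132099.1) at 0.08 ± 0.11. Pentose phosphate genes had 5 higher and 2 lower (median 0.03), with 6-phosphogluconate dehydrogenase (XM_003399908.1) at -0.01 ± 0.10 and transaldolase (XM_003396173.1) at 0.09 ± 0.15. Hexosamine and chitin synthesis had 2 higher and 4 lower (median -0.09), with chitin synthase (XM_003398804.1), which builds the chitin of the gut's peritrophic lining, at -0.02 ± 0.11 and UDP-N-acetylglucosamine pyrophosphorylase (XM_003399009.1) at 0.01 ± 0.15. Values here and below are log2 differences of exposed minus control, ± SE, and none passed the test.

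Polyol enzymes had 3 higher and 2 lower (median 0.07), with aldose reductases, which reduce glucose to sorbitol, at 0.25 ± 0.13 (XM_003401177.1) and 0.07 ± 0.20 (XM_003401178.1). Glucose release had 2 higher and 1 lower (median 0.07), with phosphoenolpyruvate carboxykinase (XM_003394476.1) at 0.19 ± 0.32 and pyruvate carboxylase (XM_003400089.1) at -0.14 ± 0.27. Their mean levels were low, at 4.25 and 1.55 RPKM.

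Hormone signalling on sugar, searched as genes of insulin and adipokinetic hormone signalling, had 0 members higher and 5 lower of 5 tested. The median was -0.37 against -0.02 over all genes. The record with the highest level, described as an insulin receptor (XR_132237.1), averaged 10.6 ± 2.84 RPKM in exposed and 15.5 ± 6.16 RPKM in control libraries, a log2 difference of -0.55 ± 0.26. The transcription factor FOXO, held back by insulin signalling and described as forkhead box protein O3 (XM_003400618.1), averaged 10.1 ± 2.47 RPKM in exposed and 12.2 ± 1.67 RPKM in control libraries, at -0.26 ± 0.18. Each of the 5 was higher in exposed guts in 1 of 4 colonies, and none was called.

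**Figure D4:**
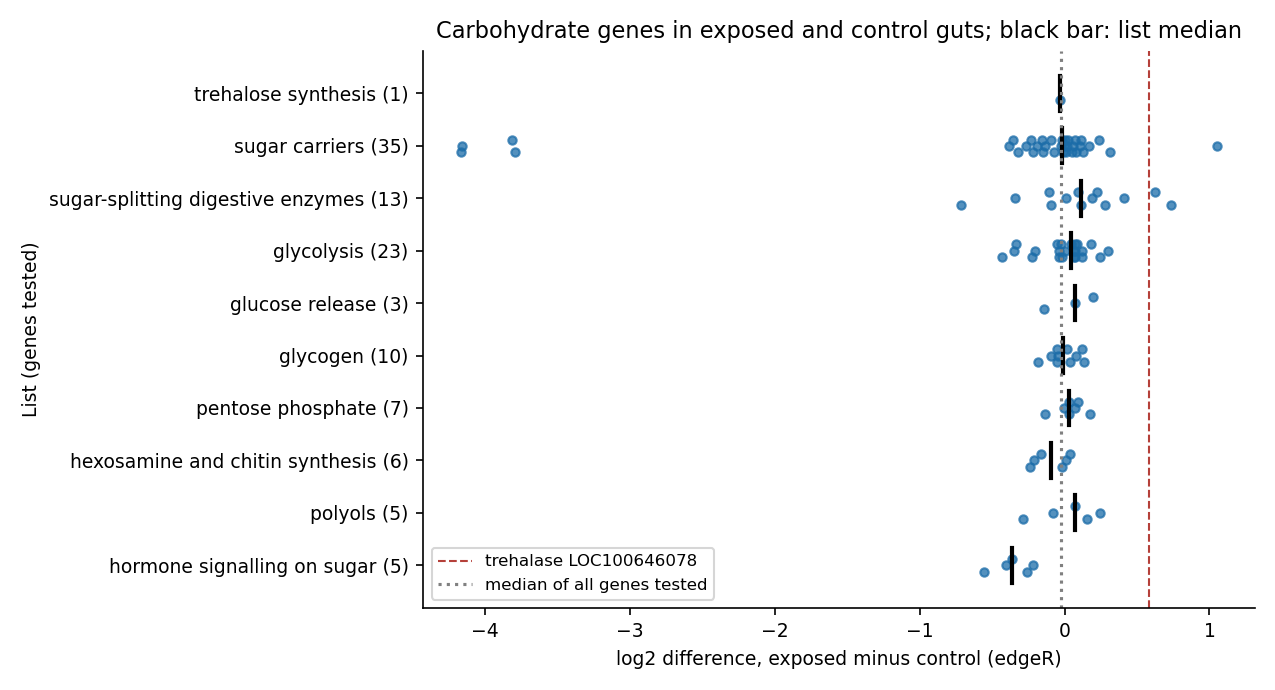
Log2 difference of exposed minus control for the tested members of 10 carbohydrate lists, with the number tested in brackets, a black bar at each list's median, a dashed line at trehalase LOC100646078 (0.58) and a dotted line at the median of all genes (-0.02). List medians run from -0.37 for hormone signalling to 0.12 for sugar-splitting enzymes, and sugar carriers spread most, from -4.17 to 1.05. Near their low end lie XM_003402471.1, XM_003400510.1 and XM_003400472.1, at -4.16, -3.81 and -3.79. Nearly all reads of these carriers in controls were in K control.

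The genes whose levels followed trehalase most closely were sought by Pearson's r on log2 CPM over the 16 libraries, among 5452 genes with a mean of at least 10 CPM. Points share their library, its depth and its scaling, and the exposed-control contrast that chose trehalase is part of each r, so the values are descriptions. The median r was -0.02, and the 5th to 95th percentile ran from -0.42 to 0.45. No gene reached 0.8 or -0.8.

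The highest r was that of prickle (XM_003396247.1), known from Drosophila for orienting cells within an epithelium, at 0.78. Prickle had 13.3 ± 3.31 CPM in exposed and 7.81 ± 0.924 CPM in control libraries. Enolase followed at 0.74, then XM_003396774.1 and XM_003394649.1, both without a description, at 0.72 each. XR_132001.1, also without a description, had 0.71, and ornithine-oxo-acid transaminase (XR_132275.1), an enzyme of ornithine and proline metabolism, had 0.70. Without L control and T 075, the libraries farthest from the trehalase median, these 6 values ran from 0.55 to 0.76.

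Over the 12 exposed libraries alone, where the exposed-control contrast plays no part, enolase ranked first of the 5452 genes at 0.85. It was the only one of the 6 to stay among the 50 highest there. The 12 are among the 16 libraries by which the 6 were picked, so these values are descriptions too. By CPM, K 075 was the highest and T 075 the lowest of the 12 for both trehalase and enolase. Also within the 12, the carrier XM_003392853.1 had an r of 0.77, the other trehalase record 0.70 and prickle 0.62. Over all 16 libraries the other trehalase record had 0.21.

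At the opposite end, the lowest r belonged to XM_003394561.1, whose database hit is too weak for a name, at -0.77. A transporter of the ABC family, G4 (XM_003402390.1), had -0.74, with 81.3 ± 19.8 CPM in exposed and 110 ± 16.1 CPM in control libraries. Transmembrane protease serine 9 (XM_003395036.1) had -0.71, with 18.1 ± 12.1 CPM in exposed and 46.7 ± 26.0 CPM in control libraries, and XM_003395603.1, without a description, had -0.69. On the RefSeq assembly, the nearest tested gene beside trehalase was aconitate hydratase (XM_003400803.1, LOC100645849) of the citric acid cycle, the second locus before it, with a log2 difference of 0.05 ± 0.12 and an r of 0.47. The locus between them (XM_003400834.1, LOC100649857, no description) averaged 0.0983 RPKM, too low to be tested.

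**Figure D5:**
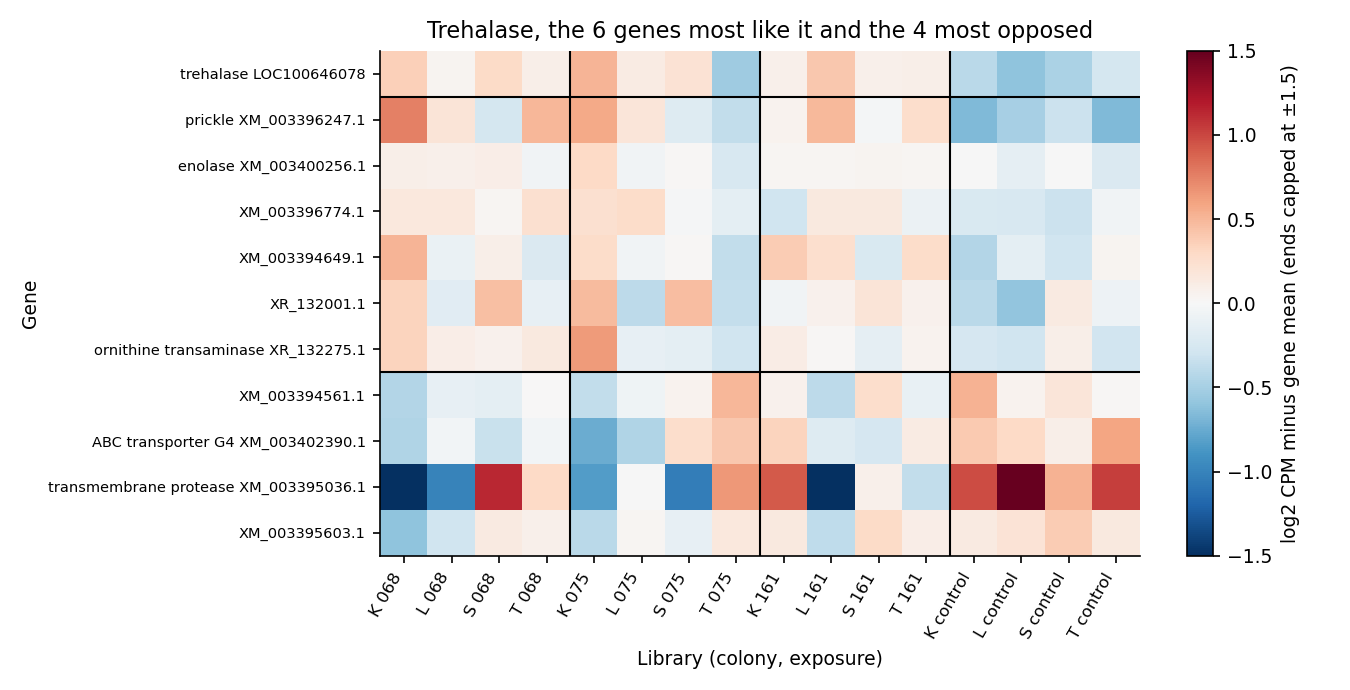
Log2 CPM minus the gene's mean (colour, capped at ±1.5) for trehalase, the 6 genes with the highest and the 4 with the lowest correlation with it, in the 12 exposed libraries by genotype and the 4 controls. Trehalase is below its mean in the 4 controls and in T 075, and the 4 lowest genes tend to the opposite sign there.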

How the data were processed

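Poly(A) RNA from 16 gut pools was sequenced on an Illumina HiSeq, per the labels' protocols, and TopHat 1.9 is listed in the submitters' processing notes. The program that counted reads, the build and the annotation release are not given in the sources used here. The deposited table holds, per the file headers, a read count, an RPKM value and a percent coverage for each of 10635 RefSeq records and 16 libraries. The deposited counts sum to the library total in the header in 16 of 16 libraries, and the deposited RPKM values follow from count, length and total in all 151539 nonzero cells (tolerance 1e-06, relative). Even numbers made up 69.1% of counts of 1 to 9 and 49.6% of those of 200 to 999, so mates of a pair may have been counted singly, which was not tested. The deposited percent coverage was used to describe the 3 trehalose genes. 

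Records were named by the deposited description where the hit score was at least 100 (6569 of 8120 described records), and 5155 records matched a RefSeq symbol on the assembly iyBomTerr1.2, used for names and neighbours alone. No sequence is shown.

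Counts were fitted in R 4.3.3 by edgeR 4.0.16, using TMM scaling, filterByExpr (8406 genes kept), and quasi-likelihood F-tests in an additive model of colony plus exposure, with 9 residual degrees of freedom. For colony by exposed state, a colony's 3 exposed libraries served as replicates, with 8 residual degrees of freedom. P-values were adjusted by Benjamini-Hochberg over all genes tested, with a threshold of 0.05. CPM values are scaled by TMM, and log2 CPM used a prior count of 2. The common biological coefficient of variation was 0.282, and that of trehalase 0.185. Alternatives were DESeq2 1.42.0, limma 3.58.1 on log2 CPM and on log2(RPKM + 1), other scalings and filters, no block, and libraries left out.

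The same colony supplied 1 library to every exposure, per the labels, so colony was the block. The edgeR p-values set a difference against the residual spread between libraries. With 1 library per colony and exposure, that residual mixes the spread between pools with any colony-specific effect of exposure. For colony by exposed state, it mixes the spread between pools with any difference between genotypes. The gene and the lists were chosen with earlier results of these data known. The named genes were, beside the trehalose genes, the 2 highest members of each list by mean RPKM, members past a threshold, the 6 genes most like and 4 most unlike trehalase, and its neighbours in rank. Lists were matched on descriptions, and matches by spelling alone were removed.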

Additional observations from a re-analysis of the deposited data

Results flagged for a closer look

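In 24 groups of 4 libraries, the 3 trehalose genes by exposure and by colony in CPM, the most extreme library was compared with the others by Dixon's test at 95%, which chance passes in about 1 in 20 groups. Trehalase LOC100646078 in L 161 stood apart from the other genotype 161 libraries, at 6613.4 CPM against 5275 to 5320 CPM. By RPKM it was 1650, inside the range of the other 3 (1457 to 1840). The other trehalase record, LOC100648008, stood apart in K 068, at 355.7 CPM among the genotype 068 libraries. Trehalose 6-phosphate synthase (XM_003396060.1) stood apart in K 075, at 886.9 CPM among the genotype 075 libraries.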

How the results depend on the processing

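The trehalase difference of exposed minus control kept its sign in every alternative, at 0.56 to 0.60 under other scalings, filters and tools, 0.60 with no replicate block, 0.47 without 3 libraries (K control, S 075 and L 161), and 0.52 to 0.74 with a library or colony left out. Left-out ranges were 0.55 to 0.78 for 068, 0.38 to 0.78 for 075 and 0.46 to 0.77 for 161 minus control. All of these values come from the contrast that chose the gene or share its controls, so they are descriptions. Genotype pairs, none of which passed, changed sign: left-out ranges were -0.085 to 0.23 for 068 minus 075, -0.093 to 0.26 for 161 minus 075 and -0.17 to 0.088 for 161 minus 068, and 161 minus 075 was -0.014 without the 3 libraries. Adjusted p-values for trehalase with libraries left out ran from 0.946 to 1 for genotypes, 0.639 to 0.931 for colonies and 0.485 to 1 for colony by exposed state (edgeR). Without the 3 libraries the median was -0.27 for glucose release and 0.026 for glycogen.

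Counts of calls moved more. For 075 minus control, edgeR called 0 genes, DESeq2 5, and the fit without the 3 libraries 10. Colony differences were called in 233 genes by DESeq2, 73 with no replicate block, 119 without the 3 libraries and 12 to 128 with libraries left out. Colony by exposed state was called in 320 genes by DESeq2, 284 by limma on log2(RPKM + 1), 0 without the 3 libraries and 0 to 345 with libraries left out. Other counts of calls were 0 with any library left out. The cause of these changes was not tested. Each genotype and each colony has 4 pools, and how the number of pools or the read depth limits small differences was not tested.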
